A study of Mus musculus with 4 samples.

Results

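Halo-Sox2M-only peaks are the places in the mouse genome where ChIP-exo found the mutant fusion protein Halo-Sox2M and found neither endogenous Sox2 nor Halo-Sox2 nearby. The peaks were chosen by their measured distance to peaks of other lists: a Halo-Sox2M peak was taken when no peak centre of the endogenous Sox2 or Halo-Sox2 list lay within 500 bp of its own centre, after mitochondrial DNA, unplaced and random sequence and every 100-kb bin with 15 or more peaks in any of the 4 lists had been left out. This gave 696 of the 1711 Halo-Sox2M peaks, or 696 of the 954 that lay outside dense bins. Of the peaks lost on the way, 302 lay on mitochondrial, unplaced or random sequence, 455 in the 11 dense bins, and 258 within 500 bp of an endogenous Sox2 or Halo-Sox2 centre.

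The study mapped Sox2 in D3 mouse embryonic stem cells with 1 library per protein. In Halo-Sox2M, positions 47, 50 and 51 of Sox2 are altered (M47G, F50 and M51G in the labels, with no new residue for F50), Halo-Sox2D keeps Sox2 residues 1 to 120, and Halo-Sox2 is the tagged protein without these changes. These 3 fusions were purified on HaloLink resin, and endogenous Sox2 was isolated with an antibody, so the tag and the way of isolation set the fusions apart from endogenous Sox2 together. No allele, drug or time point distinguishes the cells in the labels, which do not say how the fusions were expressed, at what level, or whether they came from 1 clone. The lists held 1711 Halo-Sox2M, 13833 Halo-Sox2D, 6558 Halo-Sox2 and 7153 endogenous Sox2 peaks. They give coordinates alone, with no read number or height, so depth is unknown. The absence of an endogenous Sox2 or Halo-Sox2 peak means only that none was listed. With 1 library per group there was no replicate and no test between proteins.

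Sox2 binds DNA through its HMG box, a domain that enters the minor groove and bends the helix, and it often sits beside Oct4 on composite elements in enhancers of stem cell genes. The altered positions lie in this box. Promoters, the stretches around gene starts, are where general transcription factors assemble on open chromatin. Genes for tRNAs are transcribed by RNA polymerase III from signals inside the gene called the A box and B box.

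The first sequences show what the peaks at gene starts look like. Listed first are promoters where a Halo-Sox2D centre lay near the Halo-Sox2M-only peak, followed by the protein-coding genes among the 10 promoters without a Halo-Sox2D centre within 500 bp whose peak lay nearest the start. Atp5c1, farther from its start, was added for its Sox word. All are read in the direction of transcription from the RefSeq promoter table (GRCm38.p6, the coordinates of mm10), cut to at most 30 bases past the start, with the peak in capitals.
Nit2 (chr16:57167360-57167410, minus strand): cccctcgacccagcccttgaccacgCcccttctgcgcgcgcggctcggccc
Rps9 (chr7:3704034-3704070, plus strand): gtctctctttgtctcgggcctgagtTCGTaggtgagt
Mfsd12 (chr10:81357375-81357439, plus strand): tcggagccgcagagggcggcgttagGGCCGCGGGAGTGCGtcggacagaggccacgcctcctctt
2410141K09Rik (chr13:66441138-66441206, minus strand): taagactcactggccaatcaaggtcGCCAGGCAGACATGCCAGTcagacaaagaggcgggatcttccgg
Cltc (chr11:86757645-86757699, minus strand): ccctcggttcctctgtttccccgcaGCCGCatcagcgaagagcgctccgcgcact
Ttc26 (chr6:38381385-38381451, plus strand): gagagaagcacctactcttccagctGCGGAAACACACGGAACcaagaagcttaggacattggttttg
Eif4e2 (chr1:87213907-87213968, plus strand): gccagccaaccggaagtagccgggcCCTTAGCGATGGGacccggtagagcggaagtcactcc
Rtca (chr3:116508152-116508202, minus strand): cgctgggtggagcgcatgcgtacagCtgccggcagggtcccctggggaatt
Nupl2 (chr5:24164928-24164992, plus strand): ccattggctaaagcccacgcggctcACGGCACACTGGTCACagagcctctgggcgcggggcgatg
Fbxo6 (chr4:148152110-148152170, minus strand): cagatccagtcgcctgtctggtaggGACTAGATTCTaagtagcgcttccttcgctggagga
Mrpl42 (chr10:95501931-95501981, minus strand): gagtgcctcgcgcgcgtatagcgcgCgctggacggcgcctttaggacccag
Faxc (chr4:21931283-21931351, plus strand): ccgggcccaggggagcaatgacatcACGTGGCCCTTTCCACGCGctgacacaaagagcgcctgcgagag
Taf3 (chr2:10048580-10048624, minus strand): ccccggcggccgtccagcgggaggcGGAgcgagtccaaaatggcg
Mrps17 (chr5:129715455-129715515, plus strand): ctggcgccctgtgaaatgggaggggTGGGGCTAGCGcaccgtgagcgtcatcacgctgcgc
Atp5c1 (chr2:10080558-10080627, minus strand): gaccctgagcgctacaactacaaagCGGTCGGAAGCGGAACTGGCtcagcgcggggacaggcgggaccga

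Most of these stretches are rich in G and C. The word ACAAAG, one form of the Sox recognition core, stands just after the peaks at 2410141K09Rik and Faxc, on the opposite strand before the peak at Rps9, and directly before the peak at Atp5c1, a subunit of mitochondrial ATP synthase. Neither it nor ACAATG is in the stretches shown for the other genes of this list.

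The next sequence is a whole tRNA gene for valine that could be read because it lies in the promoter window of the lncRNA gene Gm46404. Capitals mark the Halo-Sox2M-only peak, which covers bases 36 to 50 of this gene of 73 bases and ends next to the B box, ggttcgaaacc, at bases 52 to 62.
n-TVcac9 (chr13:23446142-23446214, minus strand): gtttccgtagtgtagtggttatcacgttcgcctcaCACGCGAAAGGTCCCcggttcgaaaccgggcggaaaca

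The last sequences show a repeated block on chromosome 4, where the same peak was called in gene after gene. Capitals again mark the peak.
Gm13276 (chr4:88784804-88784845, plus strand): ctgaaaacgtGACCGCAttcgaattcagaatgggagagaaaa
Gm13277 (chr4:88787727-88787768, plus strand): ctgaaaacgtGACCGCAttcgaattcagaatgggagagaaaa
Gm13278 (chr4:88790645-88790686, plus strand): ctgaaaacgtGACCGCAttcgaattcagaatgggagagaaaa
Gm13275 (chr4:88793567-88793623, plus strand): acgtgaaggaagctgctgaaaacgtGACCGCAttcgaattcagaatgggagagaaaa
Gm13288 (chr4:88805281-88805322, plus strand): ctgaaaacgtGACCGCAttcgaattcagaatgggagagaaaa
The 5 genes shared all 60 bases counted from the first base of the peak, without a mismatch.

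Most of the Halo-Sox2M-only peaks had no other one within 500 bp. Joined wherever centres lay within 500 bp, they formed 683 sites, of which 672 held 1 peak, 9 held 2 and 2 held 3 or more. The 13 gaps between such neighbours had a median of 27 bp (6 to 416 bp), and 8 of them were at most 50 bp. The peaks were 1 to 20 bp wide with a median of 11 bp, as in every list. The nearest endogenous Sox2 or Halo-Sox2 centre, which the selection put beyond 500 bp, was 500 to 1000 bp away for 22 peaks, 1 to 10 kb for 125, 10 to 100 kb for 304 and over 100 kb for 245, with a median of 50.6 kb. The 5 peaks nearest the limit on the selected side had distances of 518, 518, 544.5, 576 and 607 bp, among them those in the tRNA genes n-TEctc5 and n-TDgtc7 on chromosome 1. The 5 nearest on the other side had distances of 398, 407.5, 420.5, 451.5 and 456 bp.

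Starts of protein-coding genes held more of the Halo-Sox2M-only peaks than the length of sequence around them would give. Of the 696, 97 lay within 1 kb of such a start (13.9%, 11.6 to 16.7%), while these windows cover 1.38% of the bases between the first and last gene of each chromosome outside dense bins. All intervals are 95% Wilson intervals over peaks and cover counting error only. Among the 97 were peaks of the repeated block on chromosome 4 shown above. For 5 of them the sequence could be read and was the same. Further peaks of the block lay 732 to 892 bp before the first base of a gene, where no sequence could be read. Each copy counted as a separate start, and the interval does not allow for this. Far ends of protein-coding genes, where transcription stops, held 12 (1.72%, 0.989 to 2.99%) against 1.24% of bases, an interval that includes the share of bases. Of these 12, the peaks past H2ac7 and Fbxo44 lay at the starts of their neighbours H3c4 and Fbxo6. At the far end, Rbmxl2 (an RNA-binding protein gene) had its peak 17 bp past the end, and Ssrp1, a subunit of the histone chaperone FACT, 673 bp past it. The Ssrp1 peak was nearer to Tnks1bp1, 226 bp from an end of that gene, for which the promoter table gives no strand. Sncb, which encodes beta-synuclein, had a peak 446.5 bp past the end. Slc29a3, a nucleoside transporter, and G3bp1, a protein of stress granules, had peaks 358.5 and 953.5 bp before it. Another 23 lay at an end of a gene for which the promoter table gives no strand. Counting either end of any protein-coding gene, 125 peaks lay within 1 kb (17.96%, 15.3 to 21.0%), against 2.93% of bases.

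The same shares in other peaks of the series were in part higher and in part lower. The other 258 Halo-Sox2M peaks, those with an endogenous Sox2 or Halo-Sox2 centre within 500 bp, had 13 within 1 kb of a protein-coding start (5.04%, 2.97 to 8.43%). Halo-Sox2D peaks with no other library within 500 bp had 2095 of 10922 (19.2%, 18.5 to 19.9%), and such Halo-Sox2 peaks 294 of 3697 (7.95%, 7.12 to 8.87%). The interval of the Halo-Sox2M-only peaks overlapped none of these, and lay below that of Halo-Sox2D and above those of Halo-Sox2 and of the other Halo-Sox2M peaks. The contrast with the other Halo-Sox2M peaks is not independent of the selection, which split the list by nearness to endogenous Sox2 and Halo-Sox2 centres. Whether the libraries differ could not be tested with 1 library each.

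**Figure D1:**
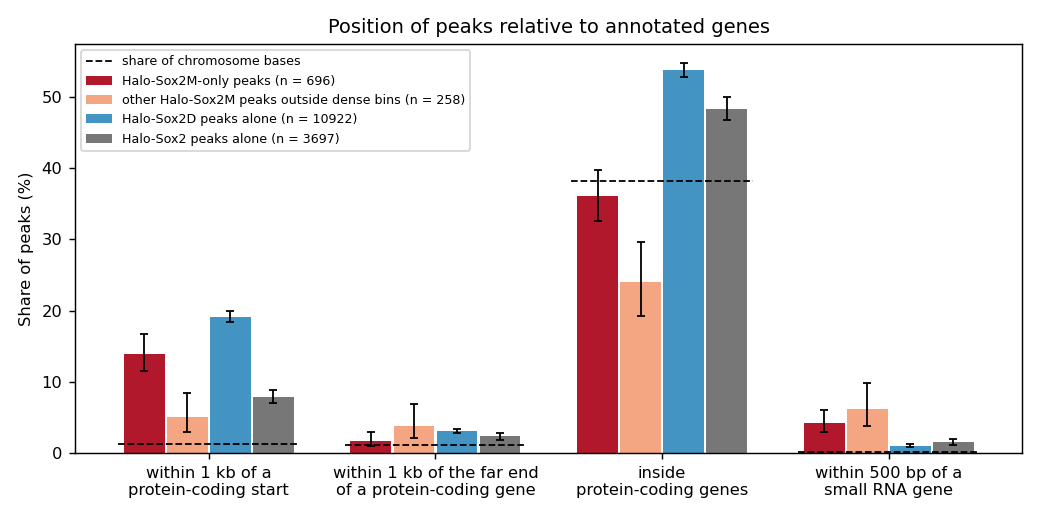
Share of peaks in 4 kinds of position for Halo-Sox2M-only peaks, the other Halo-Sox2M peaks outside dense bins, Halo-Sox2D peaks alone and Halo-Sox2 peaks alone (bars, percent; error bars are 95% Wilson intervals over peaks), with the share of chromosome bases as dashed lines. At protein-coding starts the Halo-Sox2M-only share of 13.9% stands between 19.2% for Halo-Sox2D alone and 7.95% for Halo-Sox2 alone, and at small RNA genes it is 4.31% against 1.04% and 1.54%.

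Around the start the peaks gathered on the promoter itself. Of the 97 peaks, 59 lay upstream and 38 downstream of the nearest start, at a median position of -33.5 bp and a median distance of 160 bp. The 100 bp before the start held 24 peaks and the first 100 bp after it held 18, while the next 100 bp downstream held 3. Halo-Sox2D peaks alone had a median position of -49.5 bp over 2095 peaks, and Halo-Sox2 peaks alone -66.5 bp over 294. For 10 of the 97 peaks, starts on both strands lay within 1 kb. At Polk and Cert1, which encode a translesion DNA polymerase and a ceramide transfer protein, 1 peak lay 173.5 bp upstream of the start of Polk and 17.5 bp downstream of that of Cert1.

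**Figure D2:**
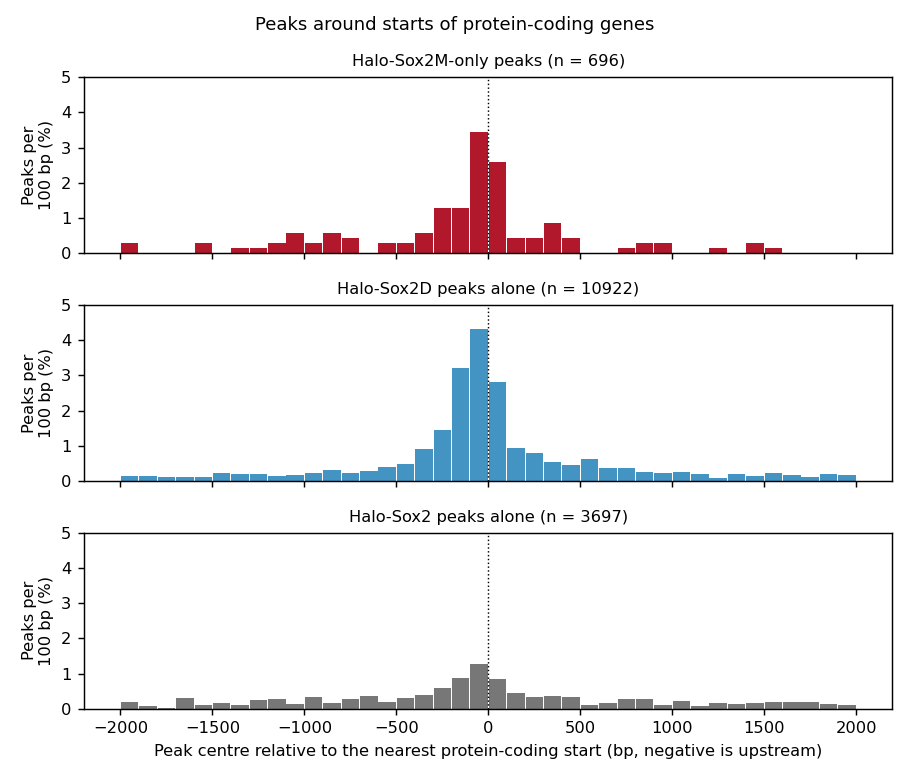
Share of peaks per 100 bp (percent of each set) by position of the peak centre relative to the nearest protein-coding start (bp, upstream negative), for Halo-Sox2M-only, Halo-Sox2D alone and Halo-Sox2 alone peaks. The highest bar in each panel is the 100 bp before the start, with 3.45%, 4.33% and 1.27% of the peaks.

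Promoter windows of 250 bases before to 50 after the start held 58 Halo-Sox2M-only peaks at 66 genes, 57 protein-coding and 9 lncRNA. The peak nearest a start without Halo-Sox2D was at Eif4e2, a cap-binding protein that represses translation, 1 bp upstream. Rtca (an RNA 3′-phosphate cyclase) followed at 2 bp upstream, Nupl2 (a nucleoporin-like protein) at 2.5 bp upstream and Fbxo6 (a ubiquitin ligase F-box protein) at 5 bp upstream. Mrpl42 and Mrps17, which encode mitochondrial ribosomal proteins, had peaks 7 and 12 bp upstream. Taf3, a subunit of the general factor TFIID, had one 11 bp downstream. Faxc, Gm45231 and Gm35407 had peaks 9, 12 and 15 bp upstream. No endogenous Sox2 or Halo-Sox2 centre lay within 500 bp of any of these peaks, by the selection.

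The Halo-Sox2D list entered the selection only through the dense bins. Of the 696 peaks, 54 had a Halo-Sox2D centre within 500 bp (7.76%, 5.99 to 9.99%), against 0.443% of bases that close to one. Among the peaks at protein-coding starts, counted apart from those at small RNA genes, it was 17 of 95 (17.9%, 11.5 to 26.8%). In peaks elsewhere it was 37 of 601 (6.16%, 4.499 to 8.37%), and outside annotated genes 12 of 306 (3.92%, 2.26 to 6.73%). Starts themselves often carry a Halo-Sox2D peak: of 21238 protein-coding starts, 1994 had a centre within 500 bp (9.39%, 9.004 to 9.79%). Of the other 258 Halo-Sox2M peaks, 69 had a Halo-Sox2D centre within 500 bp (26.7%, 21.7 to 32.5%), a higher share than in the Halo-Sox2M-only peaks, with intervals apart. This contrast is not independent of the selection, which split the sets by nearness to endogenous Sox2 and Halo-Sox2 centres. Of 13241 Halo-Sox2D peaks outside dense bins, 10922 had no other library within 500 bp, so the rest shared places with other lists. The part of the selection in the contrast was not tested.

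Few of these meetings were base on base. Within 20 bp of a Halo-Sox2D centre lay 8 Halo-Sox2M-only peaks (1.15%, 0.584 to 2.25%), against 29 of the other 258 (11.2%, 7.94 to 15.7%). By overlap of at least 1 bp the numbers were 4 and 16. The median distance among those within 500 bp was 117.75 bp in the Halo-Sox2M-only peaks and 31 bp in the others. These contrasts, too, are not independent of the selection. In promoter windows the closest was the 1-bp peak shared by Nit2, an omega-amidase, and the lncRNA gene Gm16892 on the opposite strand, 4 bp from a Halo-Sox2D centre. Rps9, a protein of the small ribosomal subunit, followed at 9 bp, Mfsd12 (a lysosomal cysteine transporter) at 28.5 bp, Cep57l1 at 43 bp, 2410141K09Rik at 50.5 bp and Gm40346 at 68 bp. Cltc, the clathrin heavy chain, shared a peak with the lncRNA gene Gm42085 at 100.5 bp, and Ttc26, an intraflagellar transport protein, had one at 121.5 bp.

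**Figure D3:**
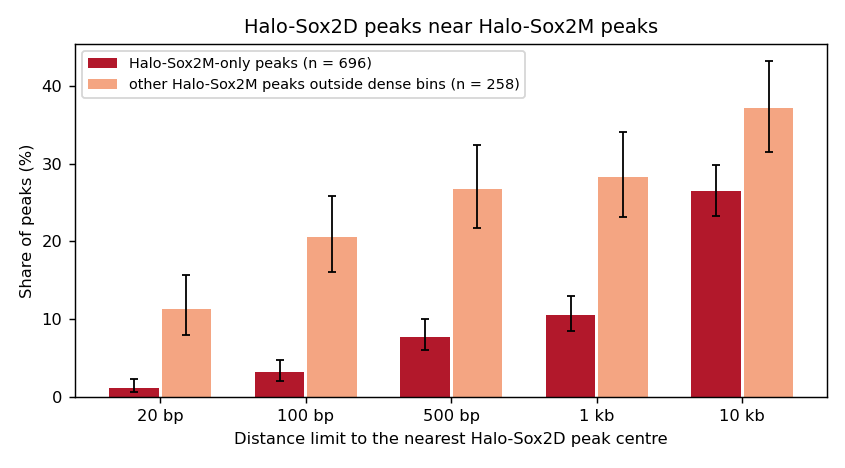
Share of Halo-Sox2M-only peaks and of the other Halo-Sox2M peaks outside dense bins with a Halo-Sox2D centre within 20 bp, 100 bp, 500 bp, 1 kb and 10 kb (percent, error bars 95% Wilson intervals over peaks). The Halo-Sox2M-only share is the lower at every limit, 7.76% against 26.7% at 500 bp, where 54 of 696 peaks are behind it. The sets were split by nearness to endogenous Sox2 or Halo-Sox2 centres, so the contrast is not independent of the selection.

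The promoter windows with a Halo-Sox2M-only peak held Sox words no more often than promoters at large. The words searched were ACAATG and ACAAAG on both strands of 300 bases, forms of the Sox core. The 66 windows came from 58 peaks. Neighbouring genes such as Bag1 and Chmp5 shared a peak, and 5 windows were copies of the chromosome 4 repeat. Intervals over windows, here and below, count these as separate and are therefore too narrow. One or both were found in 14 of 66 windows (21.2%, 13.1 to 32.5%), against 28.6% of all 32851 windows in the table. ACAATG alone was in 2 of 66 (3.03%, 0.835 to 10.4%), against 12.6% of all windows, and ACAAAG in 12 (18.2%, 10.7 to 29.1%), against 18.7%. The octamer ATGCAAAT, the word of Oct factors, was in 0 of 66, a count that allows up to 5.50%, against 1.74% of all. Windows with an endogenous Sox2 peak outside dense bins held a Sox word in 69 of 143 (48.3%, 40.2 to 56.4%) and ACAATG in 36 (25.2%, 18.8 to 32.9%), intervals that lie above those of the Halo-Sox2M-only windows. This contrast is not independent of the selection, which took out Halo-Sox2M peaks near endogenous Sox2 or Halo-Sox2 centres. Windows with the other Halo-Sox2M peaks were too few to compare, with a Sox word in 1 of 6 (16.7%, 3.01 to 56.4%). A Sox word was in 352 of 1226 windows for Halo-Sox2D alone (28.7%, 26.2 to 31.3%) and 38 of 147 for Halo-Sox2 alone (25.9%, 19.5 to 33.5%).

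Close to the peak the share was again below that of endogenous Sox2, with intervals apart, but its interval included the shares of Halo-Sox2D alone, Halo-Sox2 alone and all windows. Where 25 bases on each side of the centre lay in the window, a Sox word was found within them at 6 of 56 Halo-Sox2M-only genes (10.7%, 5.004 to 21.5%). At endogenous Sox2 genes it was 37 of 126 (29.4%, 22.1 to 37.8%), with Halo-Sox2D alone at 164 of 1069 (15.3%, 13.3 to 17.6%) and Halo-Sox2 alone at 12 of 126 (9.52%, 5.53 to 15.9%). In all windows of the table, 51 bases around the middle held one in 5.16%. As above, the contrast with endogenous Sox2 is not independent of the selection.

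Among words of general promoter factors, the GC box GGGCGG was in 37 of 66 windows (56.1%, 44.1 to 67.4%), against 35.7% of all windows, and the ETS word CCGGAAG in 15 (22.7%, 14.3 to 34.2%), against 8.86%. Windows that shared a peak could both count, as with the GC box and the ETS word at Bag1 and Chmp5. Halo-Sox2D alone had the GC box in 67.3% of its 1226 windows and the ETS word in 20.9%. The median G and C content was 59.7% in the Halo-Sox2M-only windows, 61.3% with Halo-Sox2D alone, 57.7% with Halo-Sox2 alone, 56.3% with endogenous Sox2 and 52.7% in all windows. The part of base content in the GC box, ETS and Sox word shares was not tested. The CCAAT box was in 17 windows (25.8%, 16.7 to 37.4%) against 37.4% of all, the TATA word TATAAA in 5 (7.58%) against 13.6% and the E-box CACGTG in 8 (12.1%) against 7.15%. The NRF1 word was in 1 window and the YY1 word in 2, the overlapping windows of Polk and Cert1. A B box was in 1, the tRNA gene shown above, against 0.122% of all windows.

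Small RNA genes, above all tRNA genes, were the other kind of place. There were 30 peaks within 500 bp of a small RNA gene (4.31%, 3.04 to 6.09%), against 0.236% of bases, and 25 of them had their centre inside the gene (3.59%, 2.44 to 5.25%, against 0.0922% of bases). Halo-Sox2D peaks alone had 114 within 500 bp (1.04%, 0.870 to 1.25%) and 31 inside (0.284%). Halo-Sox2 peaks alone had 57 (1.54%, 1.19 to 1.99%) and 36 inside (0.974%). The other Halo-Sox2M peaks had 16 within 500 bp (6.202%, 3.85 to 9.84%) and 13 inside (5.04%), with an interval that overlaps that of the Halo-Sox2M-only peaks. The share of the Halo-Sox2M-only peaks depended on the limit for dense bins: with no bin left out it was 121 of 807 peaks (14.99%), with bins of 5 or more peaks left out it was 13 of 600 peaks (2.17%), and with bins of 3 or more it was 3 of 485 (0.619%).

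By kind, 37 of the 4198 small RNA genes had a Halo-Sox2M-only peak within 500 bp (0.881%), and 27 of these were among the 408 tRNA genes. The centre lay inside 18 tRNA genes, 6 snRNA genes and 1 5S rRNA gene. The other 3 peaks counted for tRNA genes lay 8, 8 and 12.5 bp outside n-TGgcc12, n-TGgcc14 and n-TPagg2. The 2 microRNA genes counted, Mir7036b and Mir6546, were 281.5 and 393.5 bp away, and none of the 1340 snoRNA genes had one. In the whole lists, dense bins included, 35 tRNA genes had a Halo-Sox2M peak within 500 bp, 81 a Halo-Sox2D peak, 51 a Halo-Sox2 peak and 25 an endogenous Sox2 peak.

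The tRNA genes with a centre inside decode 9 of the 20 amino acids. Aspartate led with 5 of 16 genes (n-TDgtc3, n-TDgtc4, n-TDgtc7, n-TDgtc9 and n-TDgtc14), followed by isoleucine with 3 of 16 (n-TIaat6, n-TIaat7 and n-TIaat11). Glutamate had 2 of 20 (n-TEctc5 and n-TEctc11), lysine 2 of 26 (n-TKctt18 and n-TKctt28) and serine 2 of 22 (n-TSaga6 and n-TSgct3). Alanine (n-TAagc13), methionine (n-TMcat11), glutamine (n-TQctg7) and valine (n-TVcac9) had 1 each, and none of the 56 cysteine or 28 glycine genes held a centre. Chromosome 13 held 8 of the 18, all in the clusters between 21 and 24 Mb, and chromosome 1 held 4. Genes of 1 kind are near-identical copies, and how reads that fit several copies were placed is not given in the sources used here, so a peak may belong to another copy.

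In some genes of the same kind the peak stood at matching distances from an end. The direction of transcription was not used, so these need not be the same place in the gene. In n-TEctc5 and n-TEctc11 the centre lay 34.5 bp from the lower end of a gene of 72 bp. In n-TIaat6, n-TIaat7 and n-TIaat11 it lay 34, 34 and 33 bp from the nearer end of a gene of 74 bp. From the lower end of these isoleucine genes it lay 41, 41 and 33 bp. In n-TDgtc3 and n-TDgtc7 the centre lay 14 bp from the nearer end. The lysine genes n-TKctt18 and n-TKctt28 differed, with 28.5 and 17.5 bp from the nearer end, as did the other aspartate genes, with 34.5 bp in n-TDgtc4, 9.5 bp in n-TDgtc9 and 17 bp in n-TDgtc14. Among the 21 peaks within 500 bp of a tRNA gene, 3 met Halo-Sox2D at that limit, beside 7.76% of all 696, and the closest, in n-TSgct3, was 16 bp from its centre.

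Distances from an end also recurred among the snRNA genes. Gm23472, Gm24497, Gm23444 and Gm26316, each 191 bp long, had the peak centre at base 74, 74.5, 74.5 and 76 from the lower end. In LOC115487916, also 191 bp, it lay 48 bp from the upper end, and in Gm22068, of 164 bp, 14 bp from it. The table names no family for these snRNA genes. The 5S rRNA gene n-R5s194, of 119 bp, held its centre 38 bp from the upper end. None of these 7 peaks had a Halo-Sox2D centre within 500 bp.

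**Figure D4:**
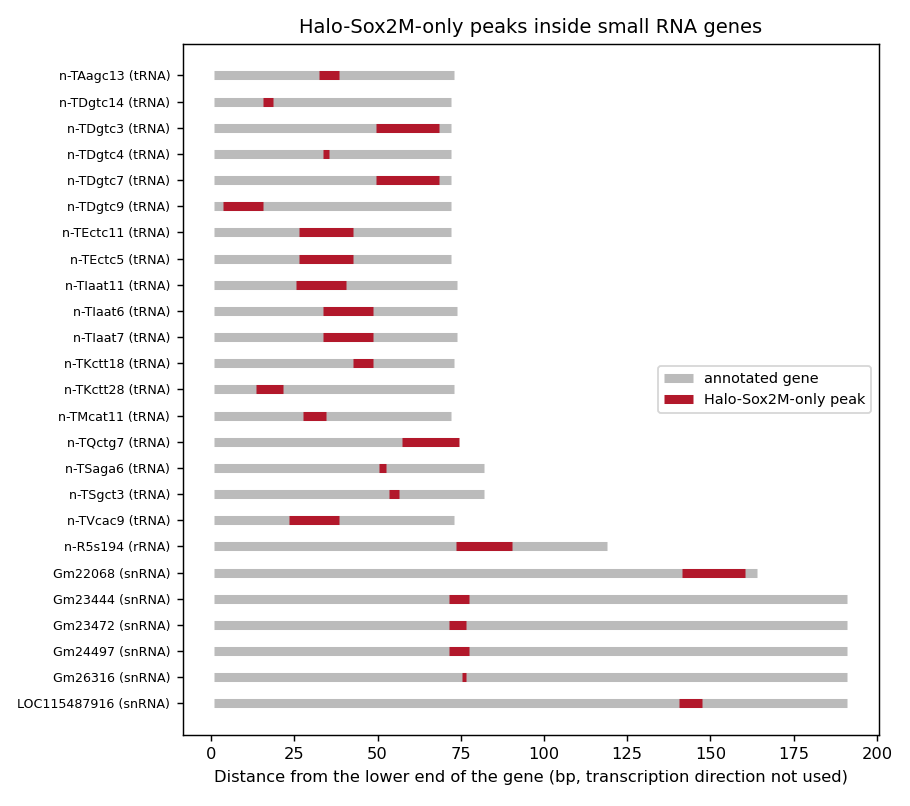
Position of the Halo-Sox2M-only peak (red) in each of the 25 small RNA genes that hold a peak centre (grey, to scale in bp from the lower end, with the direction of transcription not used). In 4 of the snRNA genes of 191 bp the peak stands at base 74 to 76, and in both glutamate tRNA genes its centre stands 34.5 bp from the end.

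Repeated blocks held a smaller number of the peaks, including those in the bins with most of them. Of the 608 bins of 100 kb with a Halo-Sox2M-only peak, 553 held 1, and the 15 bins with 3 or more held 63 of the 696 peaks. The densest, on chromosome 6 from 114500000, held 11 Halo-Sox2M-only peaks, with 0 Halo-Sox2D, 2 Halo-Sox2 and 0 endogenous Sox2 peaks and no annotated gene. The bin after it held 4 Halo-Sox2M-only peaks, 1 Halo-Sox2D peak and no peak of Halo-Sox2 or endogenous Sox2. Over both, gaps between peaks of 2338, 2362, 2382 and 2458 bp recurred.

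The bin on chromosome 4 from 88700000 held 8 Halo-Sox2M-only peaks, with 2 Halo-Sox2D, 6 Halo-Sox2 and 0 endogenous Sox2 peaks. All 8 were 7 bp wide and lay within 1 kb of one of a row of genes around Ifnz, the interferon zeta gene: Gm13283, Gm13289, Gm13272, Gm13276, Gm13277, Gm13278, Gm13275 and Gm13279. Neighbouring peaks stood 2910 to 2937 bp apart in 5 of the 7 gaps. The next bin held further peaks of 7 bp at Gm13287 and Gm13288. The third bin, on chromosome 1 from 171000000, held 6 Halo-Sox2M-only peaks, all at tRNA genes, with 4 Halo-Sox2D, 8 Halo-Sox2 and 3 endogenous Sox2 peaks. A bin on chromosome 14 from 19500000 held 4 peaks at and near Gm2237, with 0 Halo-Sox2D, 2 Halo-Sox2 and 0 endogenous Sox2 peaks.

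**Figure D5:**
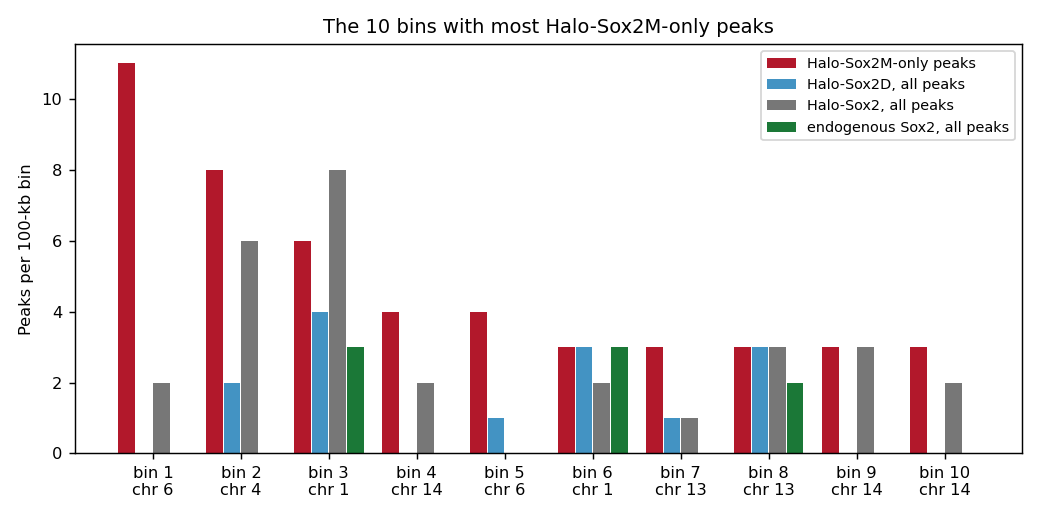
Number of Halo-Sox2M-only peaks and of all Halo-Sox2D, Halo-Sox2 and endogenous Sox2 peaks in the 10 bins of 100 kb with most Halo-Sox2M-only peaks (peaks per bin, bins in falling order and labelled by chromosome). The first 2 bins hold 11 and 8 Halo-Sox2M-only peaks and no endogenous Sox2 peak.

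Chromosome 14 had the most Halo-Sox2M-only peaks for its length, 72 or 5.78 per 10 Mb against 2.57 over all chromosomes, and 53 of the 72 lay in its first 20 Mb. Beyond that it had 1.82 per 10 Mb. Of those 53, 21 lay in or within 1 kb of a protein-coding gene, 17 of them at genes with no name other than a Gm number, and 1 had a Halo-Sox2D centre within 500 bp. Gm3317 and Gm3488 each held 2 peaks, 1622.5 and 1621.5 bp apart. The X chromosome had 14 peaks (0.820 per 10 Mb) and Y had 1. At the limit for dense bins, the fullest bin kept was on chromosome 8 from 20500000, with 14 Halo-Sox2 peaks and 2 Halo-Sox2M-only peaks, and the emptiest left out, also on chromosome 8, had 16 Halo-Sox2 peaks and no Halo-Sox2M peak.

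Bodies of protein-coding genes, counted with their starts and ends, held about as many Halo-Sox2M-only peaks as their length would give. The share inside was 251 of 696 (36.1%, 32.6 to 39.7%), against 38.2% of bases. It was 62 of 258 in the other Halo-Sox2M peaks (24.0%, 19.2 to 29.6%), 53.7% in Halo-Sox2D alone (52.8 to 54.7%) and 48.3% in Halo-Sox2 alone (46.7 to 49.9%), with the Halo-Sox2M-only interval apart from each of these 3. The contrast with the other Halo-Sox2M peaks is again not independent of the selection. Placing each peak once, 30 were at small RNA genes, 95 at protein-coding starts, 10 at far ends, 23 at ends without strand, 167 elsewhere in protein-coding genes, 65 in other annotated genes (46 of them in lncRNA genes) and 306 outside annotated genes. The 167 elsewhere in protein-coding genes were 24.0% of the peaks (21.0 to 27.3%). Windows at gene ends cover only 2.93% of bases and those at small RNA genes 0.236%. Away from both, bodies thus held fewer peaks than their length would give. The 306 peaks outside annotated genes were 44.0% (40.3 to 47.7%), while 46.1% of bases lie inside annotated genes. Sequence outside genes thus also held fewer than its length would give, and the shortfall was not confined to bodies.

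A gene seldom held more than 1 peak. Of 21887 protein-coding genes, 307 had a Halo-Sox2M-only peak in the body or within 1 kb (1.4%), 292 of them 1 peak, 11 of them 2 and 4 of them 3. Within 1 kb of an end it was 138 genes (0.631%). Those with 3 were Adam9, a membrane metalloprotease, Fyb2, an adaptor protein, Fcgr3, an Fc receptor for immunoglobulin G, and Gm2237. At Fcgr3 all 3 are the peaks at the tRNA genes n-TEctc5, n-TDgtc3 and n-TGgcc12, which lie in or beside it. At Fyb2 the peaks stood 27 and 27 bp apart, 12.1 kb before the far end of the gene, and at Adam9 they stood 783 and 79 bp apart inside the gene. Genes with 2 included 2410141K09Rik, Fmnl2, Gm31035, Gm3317, Gm3488, Gm3667, Hps5, Pakap, Slc29a3 and Thsd7a. In Thsd7a the peaks of the pair were 120472 bp apart.

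Lists of genes by function held 0 to 2 genes each with a Halo-Sox2M-only peak, beside 1.4% of all protein-coding genes. Of 30 pluripotency genes 1 had a peak (3.33%), Rif1, a factor of replication timing, with the peak inside the gene 21897.5 bp from its nearer end. Outside dense bins, 13 of these 30 genes had a Halo-Sox2D peak in the same window, 16 a Halo-Sox2 peak and 12 an endogenous Sox2 peak. With all Halo-Sox2M peaks it was 1. The Halo-Sox2D, Halo-Sox2 and endogenous Sox2 lists are longer, with 13241, 5829 and 6364 peaks outside dense bins against 954 for Halo-Sox2M. The selection also took out Halo-Sox2M peaks near endogenous Sox2 or Halo-Sox2 centres, so these counts are not directly comparable. The housekeeping list had 2 of 20 (10%): Ppia (cyclophilin A), with a peak 380 bp past its start and a Halo-Sox2D centre 114 bp away, and Actb, which encodes beta-actin, with a peak inside the gene and the nearest Halo-Sox2D centre 12.7 kb away. Cytosolic ribosomal protein genes had 2 of 87 (2.30%), Rps9 and Rpl17. Replication-dependent histone genes had 2 of 67 (2.99%), H3c4 and H2ac7, which share 1 peak 30.5 bp past the start of H3c4. Of 30 chromatin genes 1 had a peak (3.33%), Hdac2, a histone deacetylase, 151.5 bp before the first base of the gene in the gene table (the start in the promoter table lies further downstream). Fn1, which encodes fibronectin, was the 1 of 15 genes of fibroblasts and other tissues (6.67%). The lists of 16 snoRNA host genes, 10 named polymerase III RNA genes, 20 splicing and transcription genes and 15 neural genes had 0. These counts are small and were not tested.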

How the data were processed

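The authors deposited 1 ChIP-exo peak list per library (chromosome, start, end). Per the labels' protocols, sonicated nuclei were cleared and complexes isolated with an antibody or HaloLink resin. Per the submitters' processing notes, Bowtie2 and mm10 were used. Not given in the sources used here: version, peak caller, threshold, read filters and treatment of multi-mapped reads. Libraries of input DNA or resin alone were not analysed here. Starts were read as 0-based and are printed 1-based.

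Gene positions came from the RefSeq table of GRCm38.p6 (49943 genes on the chromosomes used). Starts and strand came from the RefSeq promoter table (32851 windows), which covers 17492 of the 21887 protein-coding genes, and the far end is the other end of the gene. Shares, profiles and windows at starts used these starts; Hdac2 is placed by its gene-table end. A gene with several windows was counted once, by the start nearest the peak. Shares of bases were computed exactly, with no random placement. Of 311 list symbols 310 matched; a gene of 2 lists counts in both. Shares have Wilson intervals (Python 3.11.15, numpy 2.4.6, scipy 1.17.1, matplotlib 3.10.9). Peaks are not replicates, so no p-value was computed. The code was tested on simulated data.

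Named genes were all list genes with a peak, small RNA genes in order of distance (25 tied at 0 bp, so all are named), protein-coding genes with 2 or more peaks (1 is not reported here), and promoter genes nearest a Halo-Sox2D centre or nearest the start (up to 10 each). Polk, Cert1, Atp5c1, the far-end examples, the genes of the repeated blocks and the sequences shown were chosen after their values were seen. The selection of peaks, the lists and the words were chosen with earlier results of these data known. Alternatives changed the distance limits, dense bins, windows, gene sets and chromosomes.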

Additional observations from a re-analysis of the deposited data

How the results depend on the processing

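The number of Halo-Sox2M-only peaks stayed within 485 to 885 over 9 alternatives. The share with a Halo-Sox2D centre was 12.0% when the selection used overlap of peaks, 5.57% without bins of 3 or more peaks, 3.16% at 100 bp, 10.5% at 1000 bp and 0.575% by overlap. The share at ends of protein-coding genes was 14.6% without bins of 3 or more peaks, 13.6% at 500 bp, 23.3% at 2 kb, 32.3% at 5 kb and 26.9% for all annotated genes. The share inside genes was 32.0% with no bin left out and 49.4% for all annotated genes. The share at small RNA genes was 2.17% without bins of 5 or more peaks, 0.619% without bins of 3 or more and 14.99% with no bin left out.

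With windows of 20 and 50 kb the lists had 2 and 2 pluripotency, 4 and 4 housekeeping, 14 and 26 histone, 4 and 8 ribosomal protein and 1 and 1 neural genes, and at 50 kb also 1 snoRNA host, 3 chromatin and 2 splicing and transcription genes. Without bins of 5 or more peaks there was 1 housekeeping gene and 0 histone genes. Another 58 values kept within their interval or 1.5 times of the count. The lists hold no score, so no stricter peak threshold could be tried, and depth is unknown. No paired analysis was possible because each group has 1 library.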
